A study of Mus musculus and Homo sapiens with 107 samples.

Results

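A set of 9 genes of the Notch signalling pathway was followed by RNA-seq in 2 human lung cancer lines, H1299 and A549, both of the non-small-cell type, after inhibition of the SWI/SNF chromatin remodelling complexes. They are the ligand genes JAG1 and JAG2, the receptor genes NOTCH1, NOTCH2 and NOTCH3, and the target genes HES1, HES4, HEY1 and NRARP. Each was taken by its Ensembl identifier, given where the gene is first described. All 9 are among the 24019 rows of the H1299 count table, the 24353 rows of the A549 table and the 22842 identifiers that the tables share. The genes were chosen by name with measured values in view, namely the changes with BRM014 in these libraries, among them a rise of HES4 in both lines. The responses of the 9 genes to the inhibitor are therefore given as values with their errors and without p-values. The difference between the lines without the inhibitor is not named in that choice and was tested. It rests on the same DMSO libraries, so its p-values are not independent of the choice.

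Of the 107 samples of the series, 12 are these RNA-seq libraries, and the other 95 were not analysed here. BRM014 blocks the ATPases of SWI/SNF, BRM and BRG1, at an allosteric site, and both lines are known to lack functional BRG1. The groups, with 3 libraries each, are H1299 with BRM014, H1299 with DMSO (the solvent), A549 with BRM014 and A549 with DMSO. All cells are listed as wild type, and treatment lasted 12 h with 5 µM BRM014 or with DMSO, given as 0.05% in the titles and as 0.5% in the treatment field. H1299 cells grew in RPMI and had 8 cycles of library PCR, while A549 cells grew in F12-K and had 9 cycles, so the effect of the line cannot be told apart from that of medium or amplification. Each line stands for a single established culture, and the labels do not say whether the replicates were separate cultures, so the p-values below reflect how much these libraries varied, and that variation may be technical. Whether a lower level means fewer cells that express a gene or less RNA per cell cannot be told apart in bulk RNA.

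Libraries held 28412113 to 41780029 counts in H1299 and 40684360 to 50177678 in A549. ERCC spike-ins were added by cell number but were not used here, so all values are relative within a library. Levels are CPM, counts scaled to a common library size after normalisation of the 12 libraries with TMM factors, and are compared only within a gene, because gene lengths were not used. A549 BRM014 columns include 2 with the same header, called libraries a and b here, and the library labelled replicate 3. Within its group, library a had the highest level for 7 of the 9 genes, and A549 DMSO replicate 1 likewise had the highest for 7 of 9. The cause of this shared deviation was not tested. Leaving out either library changed no call of the 9 genes in A549, and fits with a replicate block are given in the closing section. "Rose", "fell" and "changed" mark an adjusted p below 0.05 in edgeR's quasi-likelihood test with Benjamini-Hochberg adjustment over all genes tested. For the BRM014 responses of the 9 genes, these words and the threshold are labels and no evidence of a response. The genes were chosen with those responses in view.

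Notch signalling passes between neighbouring cells. A ligand of the Jagged or Delta-like family on the surface of a cell binds a Notch receptor on the next, the receptor is cleaved, and its intracellular domain moves to the nucleus, where it joins the DNA-binding protein RBPJ and switches on targets, mainly the HES and HEY repressors and the feedback inhibitor NRARP. In the airway, Notch favours secretory over ciliated cells and holds back the neuroendocrine fate. NOTCH and JAG transcripts measure none of these steps directly, while transcripts of the HES, HEY and NRARP genes are commonly used as readouts of the pathway, although other signals control them too.

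With BRM014, HES1, HES4 and HEY1 rose in both lines, HES1 and HES4 by amounts that differed between the lines. NRARP, the ligands and the receptors also responded in ways that depended on the line. NRARP rose in A549 and did not pass the threshold in H1299. In A549 the ligands moved in opposite directions, JAG2 up and JAG1 down, and NOTCH1 and NOTCH3 fell. In H1299 NOTCH3, JAG1 and JAG2 rose, by smaller amounts, and NOTCH2 fell. NOTCH3 and JAG1 thus had opposite directions in the lines, though the H1299 calls of JAG1 and JAG2 hung on single libraries. Of the 9 genes, 6 rose and 1 fell in H1299, where 22% of the 14986 genes tested changed, 9.29% up and 12.7% down. In A549, 5 rose and 3 fell, where 37% of the 15188 genes tested changed, 17.7% up and 19.4% down. The median log2 fold change of the 9 was 0.19 in H1299 and 0.42 in A549, against medians over all genes tested of 0.0029 and 0.017. Since these contrasts were known when the genes were chosen, nothing is read from the counts. Scaling by library totals left the same 6 and 1, and 5 and 3, but moved the balance of all changed genes, with 58.4% of them higher in H1299, against 42.2% with TMM, and 60.9% higher in A549, against 47.7%.

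**Figure D1:**
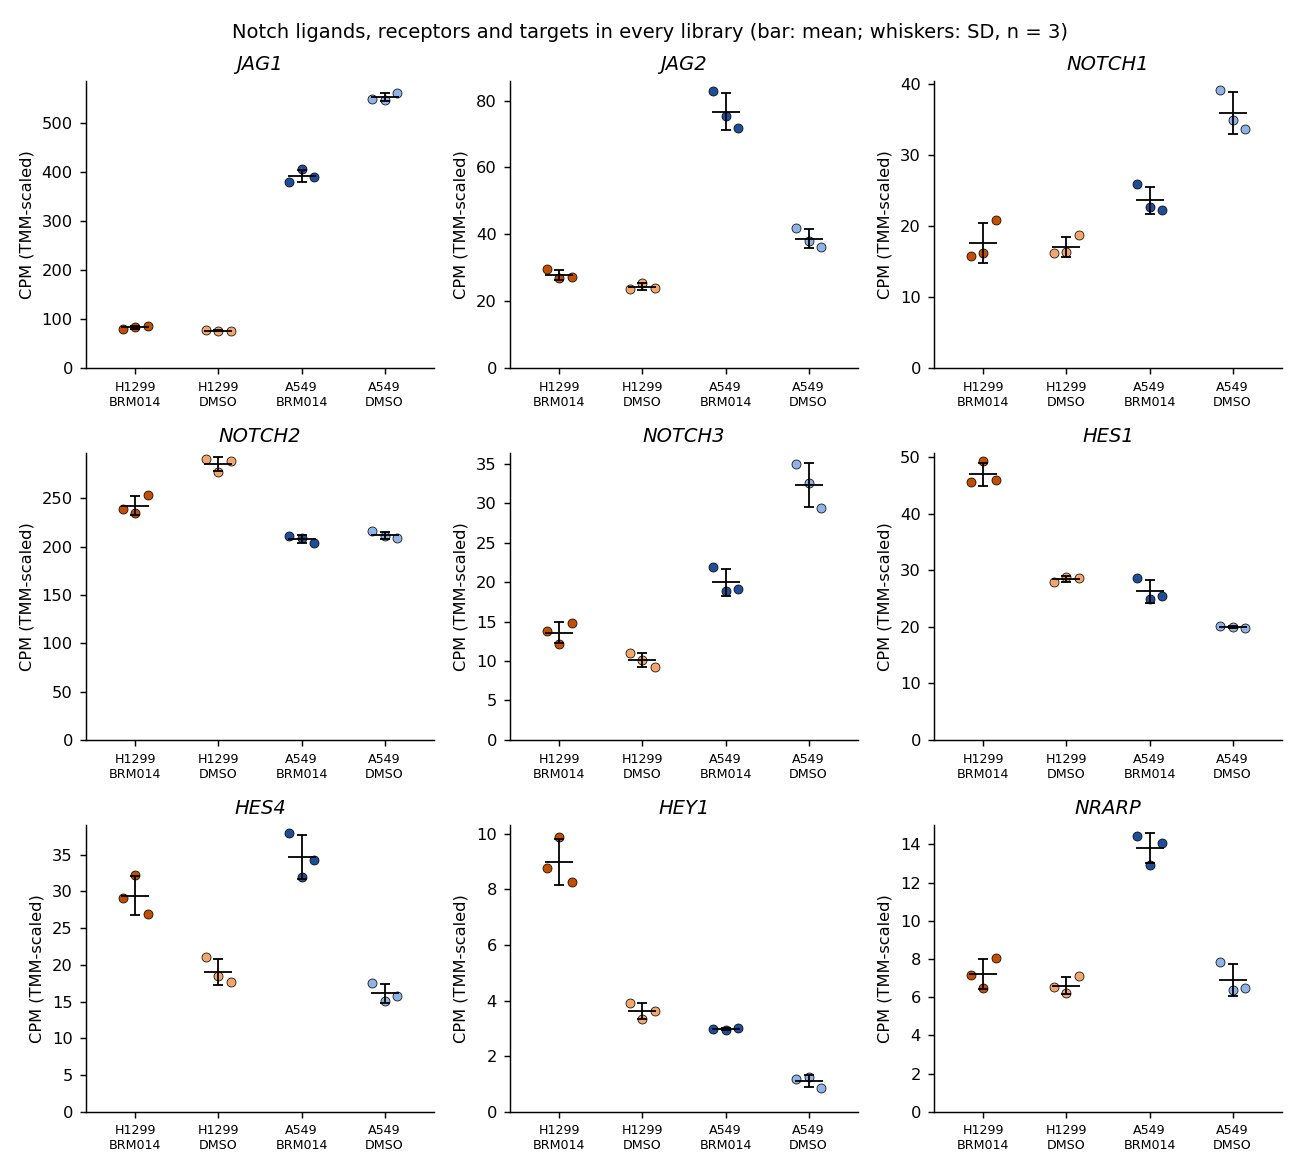
Level of each gene in CPM (TMM-normalised counts at a common library size) in all 12 libraries. Points are libraries, bars the mean and whiskers the SD of 3 libraries. Each of the 4 targets lies higher with BRM014 than with DMSO in A549, and JAG1 in A549 DMSO libraries, at 547 to 562 CPM, stands above every other group.

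HES4 (ENSG00000188290) encodes a basic helix-loop-helix repressor of the HES family. In H1299 it had 29.1, 32.2 and 27.0 CPM with BRM014, against 21.1, 18.5 and 17.6 CPM with DMSO. A549 libraries held 37.9, 32.0 and 34.2 CPM with BRM014, against 17.5, 15.0 and 15.7 CPM with DMSO. In both lines every BRM014 library was above every DMSO library. The log2 fold change was 0.62 (SE 0.06) in H1299 and 1.13 (SE 0.08) in A549. It exceeded that of 98.0% of the genes tested in H1299 and of 98.6% in A549. The rise of HES4 was in view when the genes were chosen, so these ranks are a description only. The response in H1299 was smaller by a log2 difference of -0.48 (SE 0.11). Ordered by mean, HES4 was highest in A549 with BRM014, then H1299 with BRM014, with overlapping libraries, then H1299 with DMSO and A549 with DMSO.

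HES1 (ENSG00000114315), the best-studied HES repressor, rose as well, and more in H1299. Its libraries there held 45.6, 49.3 and 46.0 CPM with BRM014, against 27.9, 28.8 and 28.7 CPM with DMSO. In A549 the values were 28.6, 24.9 and 25.4 CPM with BRM014, against 20.1, 19.9 and 19.8 CPM with DMSO. The BRM014 and DMSO libraries did not overlap in H1299 or in A549, and the BRM014 level of A549 overlapped the DMSO level of H1299. The log2 fold change was 0.72 (SE 0.05) in H1299 and 0.42 (SE 0.07) in A549, a log2 difference of 0.33 (SE 0.08), H1299 minus A549. Without A549 library a, the highest of its group, the A549 value was 0.34 (SE 0.07).

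HEY1 (ENSG00000164683), a repressor of the related HEY family, had the largest fold change of the 9 in each line. It had 8.78, 9.88 and 8.28 CPM with BRM014 in H1299, against 3.93, 3.33 and 3.61 CPM with DMSO. With BRM014, A549 libraries held 2.98, 2.95 and 3.00 CPM, against 1.19, 1.26 and 0.841 CPM with DMSO. The A549 values rest on 121 to 125 counts per library with BRM014 and 38 to 50 with DMSO. No library of any group overlapped another group, and the order from high to low was H1299 with BRM014, H1299 with DMSO, A549 with BRM014 and A549 with DMSO. The log2 fold change of 1.31 (SE 0.11) in H1299 was exceeded by 0.0934% of the genes tested, and that of 1.47 (SE 0.16) in A549 by 0.678%. As for HES4, these ranks are a description only. The responses differed by -0.15 (SE 0.19) on the log2 scale, less than the SE of that difference, and without A549 DMSO replicate 3 the difference was 0.03 (SE 0.21).

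NRARP (ENSG00000198435) encodes an ankyrin-repeat protein that binds the Notch intracellular domain complex and lowers its activity. Its libraries in H1299 held 7.14, 6.48 and 8.05 CPM with BRM014, against 6.54, 6.19 and 7.09 CPM with DMSO, and these ranges overlapped. In A549 the values were 14.4, 12.9 and 14.1 CPM with BRM014, against 7.85, 6.37 and 6.48 CPM with DMSO. The A549 BRM014 libraries were thus separate from all others, while the other 3 groups lay together. The log2 fold change was 0.12 (SE 0.10) in H1299, which did not pass the threshold, and 1.02 (SE 0.09) in A549, and the difference between these responses was -0.87 (SE 0.14).

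**Figure D2:**
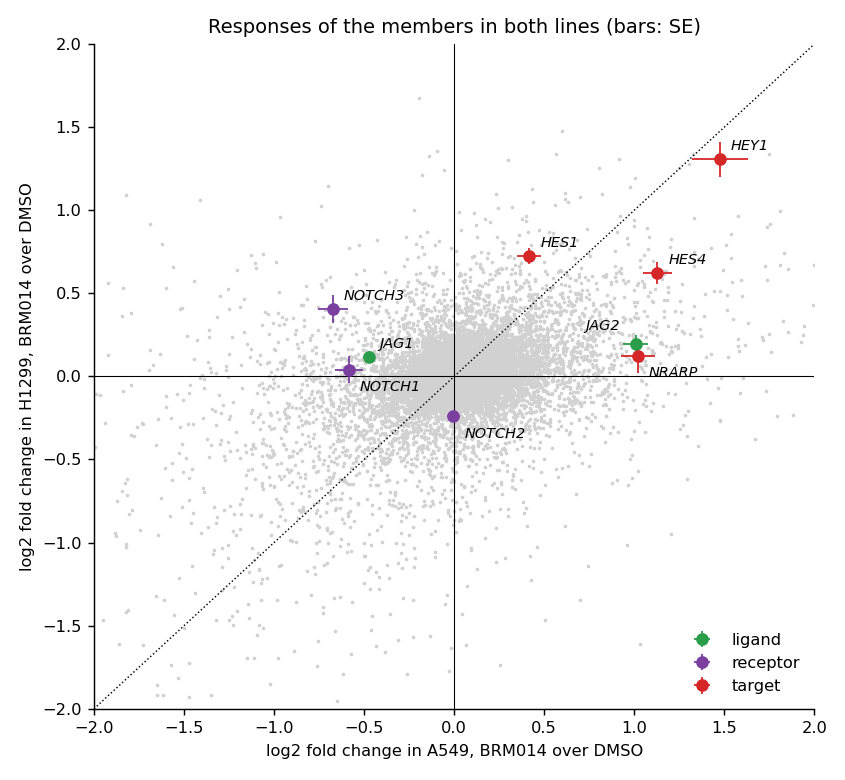
Log2 fold change with BRM014 over DMSO in A549 (horizontal) and H1299 (vertical) for the 9 genes, with bars of 1 SE, coloured by role. Grey points are the 13675 genes tested in both lines, of which 94 lie outside the axes, and the dotted line marks equal responses. HES1, HES4 and HEY1 lie high in both directions, JAG2 and NRARP far to the right near 0 in H1299, and NOTCH3 to the upper left.

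The ligand genes had responses of opposite sign in A549. JAG2 (ENSG00000184916) had 82.9, 75.4 and 71.9 CPM with BRM014, against 41.9, 38.0 and 36.3 CPM with DMSO, a log2 fold change of 1.01 (SE 0.07). JAG1 (ENSG00000101384), a ligand of all 3 receptors, had 380.3, 406 and 391 CPM with BRM014, against 550.5, 547 and 562 CPM with DMSO, a log2 fold change of -0.47 (SE 0.03). Neither pair of A549 groups overlapped, so the ligands moved in opposite directions within the same libraries. H1299 showed smaller rises of both. Its JAG2 values were 29.6, 26.9 and 27.3 CPM with BRM014, against 23.5, 25.5 and 24.1 CPM with DMSO (log2 fold change 0.19, SE 0.06). Its JAG1 values were 80.0, 83.8 and 85.3 CPM with BRM014, against 77.7, 76.0 and 75.6 CPM with DMSO (log2 fold change 0.12, SE 0.04). These groups did not overlap either, but the distances are small and the calls in H1299 hang on single libraries. JAG1 no longer passed the threshold without DMSO replicate 2 (0.12, SE 0.04), without DMSO replicate 3 (0.11, SE 0.04) or without BRM014 replicate 3 (0.10, SE 0.04), and JAG2 no longer passed it without DMSO replicate 1 (0.16, SE 0.06) or BRM014 replicate 1 (0.15, SE 0.06). The log2 difference between the responses, H1299 minus A549, was -0.79 (SE 0.09) for JAG2 and 0.61 (SE 0.05) for JAG1.

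Counts of a pair of genes in the same library give a ratio that library scaling cannot move. The pairs shown were chosen after the values were seen, and the ratio is not per length, so only its change between groups is informative. JAG2 counts per 100 JAG1 counts were 33.7 ± 2.87 with BRM014 and 31.9 ± 1.68 with DMSO in H1299, and 19.6 ± 1.91 with BRM014 and 7.01 ± 0.586 with DMSO in A549 (SD, n = 3 each). The H1299 groups overlapped. In A549 the lowest BRM014 library, at 18.4, was above the highest DMSO library, at 7.62. HES4 counts per 100 HES1 counts were 62.6 ± 3.49 with BRM014 and 67.0 ± 7.43 with DMSO in H1299, again overlapping, and 132 ± 3.3 with BRM014 and 80.6 ± 5.93 with DMSO in A549 (SD, n = 3 each). HES4 therefore gained on HES1 in A549, and in H1299 the ratio did not move beyond the spread of its libraries. Mean HEY1 counts per 100 HES1 counts were 19.1 with BRM014 and 12.7 with DMSO in H1299, and 11.4 and 5.49 in A549. For NRARP per 100 HES1 counts the means were 15.4 with BRM014 and 23.2 with DMSO in H1299, and 52.6 and 34.5 in A549. For both pairs the BRM014 and DMSO libraries of a line did not overlap.

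**Figure D3:**
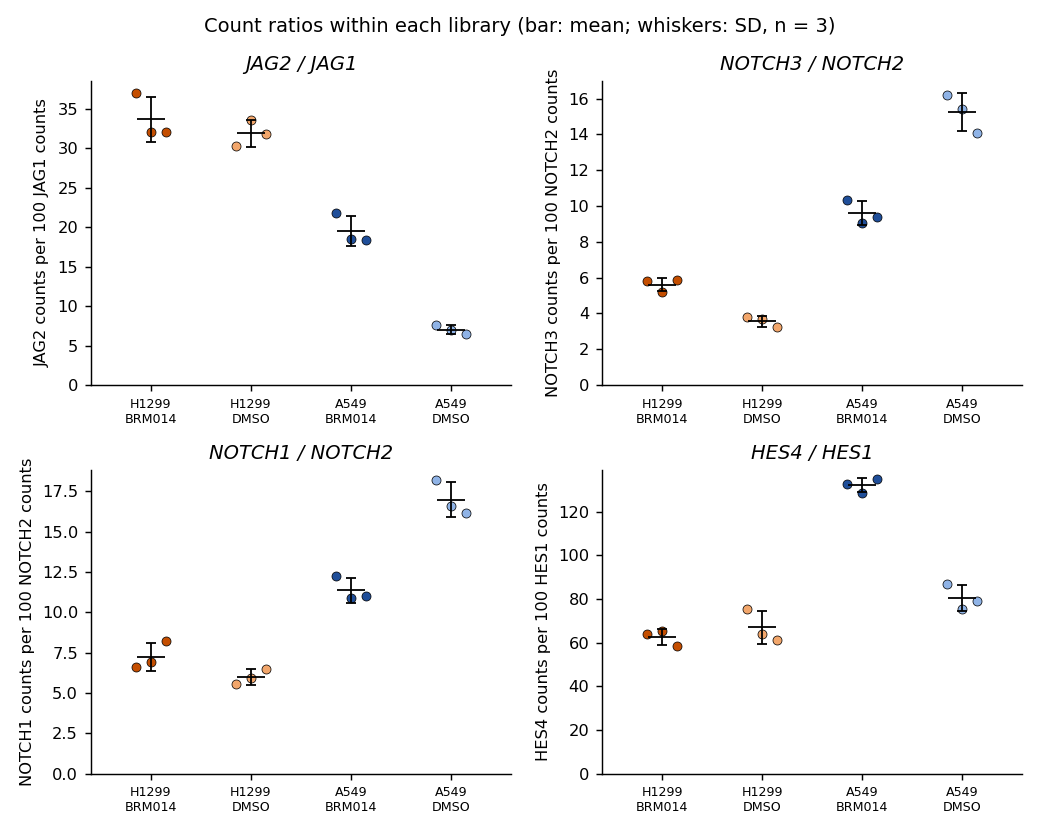
Counts of a gene per 100 counts of another in the same library, for JAG2 over JAG1, NOTCH3 over NOTCH2, NOTCH1 over NOTCH2 and HES4 over HES1. Points are libraries, bars the mean and whiskers the SD of 3 libraries. JAG2 over JAG1 and HES4 over HES1 stand higher with BRM014 in A549, and NOTCH3 over NOTCH2 moves down in A549 and up in H1299.

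Among the receptors, NOTCH3 (ENSG00000074181) moved in opposite directions. In H1299 it had 13.8, 12.2 and 14.8 CPM with BRM014, against 11.0, 10.2 and 9.27 CPM with DMSO. A549 libraries held 21.9, 18.9 and 19.1 CPM with BRM014, against 35.0, 32.5 and 29.4 CPM with DMSO. No 2 of the 4 groups overlapped, and the BRM014 groups lay between the DMSO groups, so the lines were closer to each other with the inhibitor than without it. The log2 fold change was 0.41 (SE 0.08) in H1299 and -0.67 (SE 0.08) in A549, a log2 difference of 1.10 (SE 0.12). Relative to NOTCH2 in the same library, NOTCH3 had 5.61 ± 0.363 counts per 100 with BRM014 and 3.56 ± 0.305 with DMSO in H1299, and 9.6 ± 0.68 with BRM014 and 15.2 ± 1.08 with DMSO in A549 (SD, n = 3 each). NOTCH2 itself fell in H1299, as given below, so the H1299 ratio also carries that fall.

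NOTCH1 (ENSG00000148400) resembled NOTCH3 in A549, with 25.9, 22.7 and 22.3 CPM with BRM014, against 39.2, 34.9 and 33.7 CPM with DMSO, and a log2 fold change of -0.58 (SE 0.08). In H1299 it had 15.7, 16.2 and 20.9 CPM with BRM014, against 16.2, 16.4 and 18.8 CPM with DMSO. Those groups overlapped, the log2 fold change was 0.04 (SE 0.08) and did not pass the threshold, and it turned to -0.10 (SE 0.08) without BRM014 replicate 3. The log2 difference between the responses was 0.65 (SE 0.13). Counts of NOTCH1 per 100 NOTCH2 counts were 7.24 ± 0.883 with BRM014 and 6 ± 0.474 with DMSO in H1299, and 11.4 ± 0.776 with BRM014 and 17 ± 1.08 with DMSO in A549 (SD, n = 3 each). In H1299 the lowest ratio with BRM014, 6.58, was above the highest with DMSO, 6.52. This ratio too carries the fall of NOTCH2 in H1299.

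NOTCH2 (ENSG00000134250) moved little in A549 and fell in H1299. In A549 it had 211, 209 and 203 CPM with BRM014, against 216, 211 and 209 CPM with DMSO, which overlapped, with a log2 fold change of -0.0045 (SE 0.04) that did not pass the threshold. In H1299 it had 239, 234 and 253 CPM with BRM014, against 291, 277 and 288 CPM with DMSO. Here the groups were separate and NOTCH2 fell by 0.24 on the log2 scale (SE 0.03), the only fall among the 9 genes in that line. The responses differed by -0.21 (SE 0.05). Human NOTCH2 has near-identical partial copies, the NOTCH2NL genes, and how reads that fit both were counted is not given in the sources used here, so its level is uncertain.

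In the fit of all 12 libraries, 8 of the 9 responses differed between the lines past the threshold, 4 more positive and 4 more negative in H1299, where 19.5% of the 16466 genes tested differed, 10.2% more positive and 9.25% more negative. The exception was HEY1. As these differences are built from the responses by which the genes were chosen, this count is a description too.

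The difference between the lines in DMSO was tested. JAG1 showed the widest gap, with 76.4 ± 1.1 CPM in H1299 and 553 ± 7.98 CPM in A549 (SD, n = 3 each), a log2 difference of -2.86 (SE 0.04, edgeR adjusted p = 3.64e-27). NOTCH3 averaged 10.2 ± 0.882 CPM in H1299 and 32.3 ± 2.79 CPM in A549 (SD; -1.66, SE 0.09, edgeR adjusted p = 2.83e-15). NOTCH1 averaged 17.1 ± 1.43 CPM in H1299 and 36 ± 2.92 CPM in A549 (SD; -1.07, SE 0.09, edgeR adjusted p = 3.63e-11). JAG2 was lower in H1299 too, at 24.4 ± 1.04 CPM, against 38.8 ± 2.9 CPM in A549 (SD; -0.67, SE 0.06, edgeR adjusted p = 7.58e-10). Both ligands and these 2 receptors were thus lower in H1299, with no overlap of libraries.

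The opposite held for NOTCH2 and for 3 targets. HEY1 averaged 3.62 ± 0.299 CPM in H1299 and 1.1 ± 0.224 CPM in A549 (SD; 1.74, SE 0.15, edgeR adjusted p = 1.29e-10). NOTCH2 averaged 285 ± 7.08 CPM in H1299 and 212 ± 3.63 CPM in A549 (SD; 0.43, SE 0.04, edgeR adjusted p = 8.21e-11). HES1 averaged 28.5 ± 0.46 CPM in H1299 and 20 ± 0.16 CPM in A549 (SD; 0.51, SE 0.06, edgeR adjusted p = 2.3e-08). HES4 was higher in H1299 by the smallest margin, 19 ± 1.8 CPM against 16.1 ± 1.3 CPM in A549 (SD; 0.25, SE 0.08, edgeR adjusted p = 0.00904), and this did not pass the threshold without H1299 DMSO replicate 1 (0.16, SE 0.09) or without A549 DMSO replicate 2 (0.20, SE 0.09). Over the alternatives the highest adjusted p for HES4 was 0.104. NRARP averaged 6.6 ± 0.451 CPM in H1299 and 6.9 ± 0.828 CPM in A549 (SD), a log2 difference of -0.07 (SE 0.10, edgeR adjusted p = 0.536), and its libraries overlapped.

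In all, 4 of the 9 genes were higher and 4 lower in H1299. Of the 16466 genes tested, 85.7% differed, 42.9% higher and 42.8% lower, so 8 of 9 is close to the share among all genes. When libraries were scaled by their totals, the median over all genes was 0.24, against 0.02 with TMM. Under that scaling HES4 differed by 0.47, NOTCH2 by 0.66 and JAG2 by -0.44, and NRARP, at 0.16, had the reverse sign of its TMM value without passing the threshold.

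**Figure D4:**
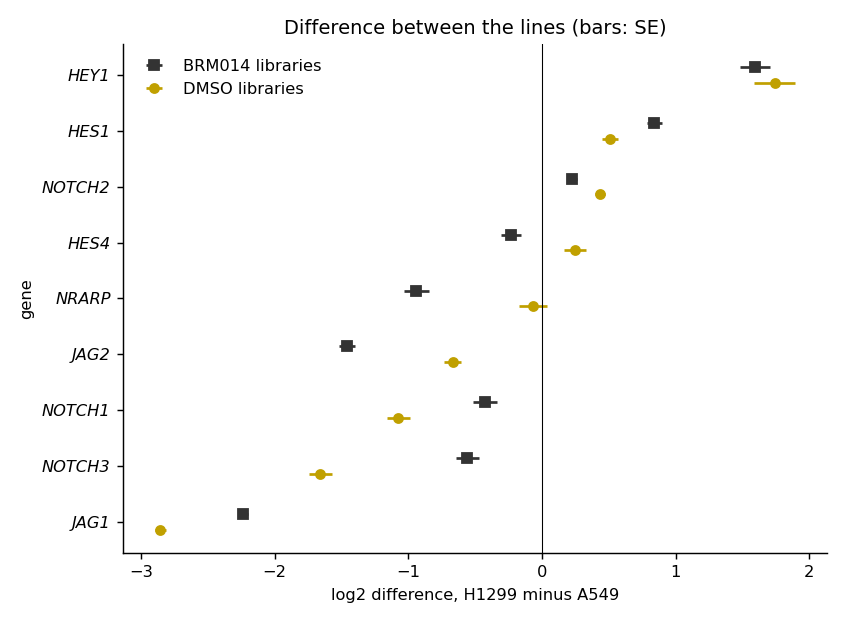
Log2 difference between the lines, H1299 minus A549, for each gene in the BRM014 libraries (squares) and in the DMSO libraries (circles), with bars of 1 SE. In DMSO the gap runs from -2.86 for JAG1 to 1.74 for HEY1. With BRM014 the gaps of JAG1, NOTCH1 and NOTCH3 are nearer to 0, and those of NRARP and JAG2 are farther below it.

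Set beside the DMSO gaps, those in the BRM014 libraries show where the lines lay closer together or farther apart. They combine the DMSO gaps with the differences of responses already given, so they are a description with no test. NOTCH3 differed by -0.56 (SE 0.08) with BRM014, against -1.66 with DMSO. JAG1 differed by -2.24 (SE 0.04), against -2.86, and NOTCH1 by -0.43 (SE 0.09), against -1.07. NOTCH2 differed by 0.22 (SE 0.04), against 0.43. For these 4 the gap was narrower with BRM014. NRARP differed by -0.94 (SE 0.09), against -0.07, JAG2 by -1.46 (SE 0.06), against -0.67, and HES1 by 0.84 (SE 0.06), against 0.51, so these lay farther apart with the inhibitor. HEY1 differed by 1.60 (SE 0.11), against 1.74. HES4 differed by -0.23 (SE 0.08) with BRM014 and by 0.25 with DMSO, so the sign of its gap changed. Its BRM014 libraries overlapped between the lines, and its DMSO gap passed the threshold in 11 of 13 alternatives. No alternatives were run for the BRM014 gaps.

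Over the 4 group means of log2 CPM, each gene centred on its own mean, the member nearest to NOTCH3 was NOTCH1, at a distance of 0.454, and the member nearest to HES4 was NRARP, at 0.615. Outside the set, the gene most like HES4 among 11860 with at least 5 CPM in a group was ENSG00000116604, at a distance of 0.125. Its means were 58.2 CPM in H1299 with BRM014 and 40.5 CPM with DMSO, and 70.1 CPM in A549 with BRM014 and 35.6 CPM with DMSO. The next was ENSG00000125434, at 0.194, with 7.96 CPM in H1299 with BRM014 and 6.19 CPM with DMSO, and 10.4 CPM in A549 with BRM014 and 4.69 CPM with DMSO. These distances rest on 4 groups and describe likeness of levels alone.

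**Figure D5:**
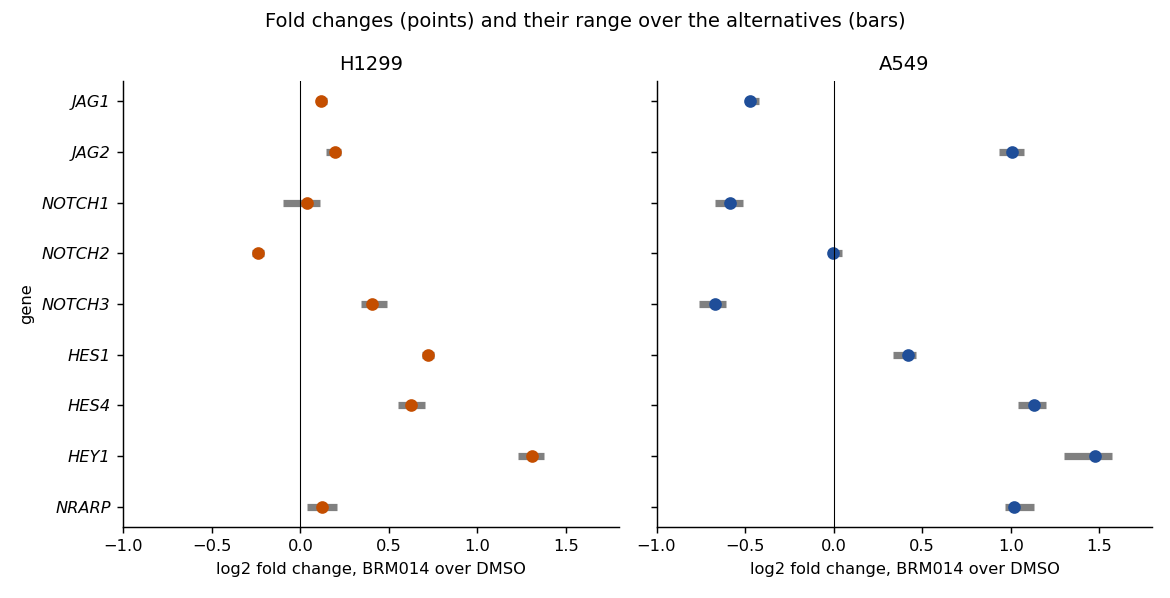
Log2 fold change with BRM014 over DMSO (points) and its range over the alternative analyses (grey bars) for each gene in H1299 (left) and A549 (right). Bars cross 0 for NOTCH1 in H1299 and NOTCH2 in A549, the same genes whose points lie closest to 0 in those lines.

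Across the alternative scalings, tests, filters and omitted libraries, HES4 ranged from 0.55 to 0.70 in H1299 and from 1.04 to 1.199 in A549. NOTCH3 ranged from 0.34 to 0.49 in H1299 and from -0.76 to -0.61 in A549, so its opposite directions were present in each. JAG1 ranged from 0.10 to 0.15 in H1299 and from -0.49 to -0.42 in A549. HEY1 was not covered by the filter at 5 CPM in A549, where its level is lower than that.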

How the data were processed

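RNA-seq was analysed in 12 libraries. The authors deposited raw counts per gene for each line. The submitters' processing notes name STAR 2.7.3a, Bowtie 1.2.2, cutadapt 1.14, DESeq2 and featureCounts, with build hg38. The sources used here give no roles, annotation or strand setting, so overlapping and antisense genes are uncertain. Replicate pairs differed beyond sampling noise (chi-square per degree of freedom 2.2 to 11.1).

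In R 4.3.3, edgeR 4.0.16 (filterByExpr with a count minimum of 10 and 15 in total, TMM, glmQLFit and glmQLFTest, two-sided, Benjamini-Hochberg adjustment at 0.05) was fitted to each line alone. The 12 libraries were fitted jointly over shared identifiers for differences between lines and for CPM. The SE is the log2 difference divided by the square root of F. Steps were tested on simulated data. DESeq2 1.42.0, limma-voom (limma 3.58.1), other scalings and filters, omitted libraries and a replicate block were alternatives.

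All 9 members are named; members and lists were chosen with earlier results of these data known. The nearest genes to HES4 were to be the first 3 by distance (prior count 2); the text gives 2, without names. The name and sequence tables at hand are for mouse and matched 0 identifiers, so other Notch pathway genes, cell type markers, the lines' identity and sequences were not analysed here.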

Additional observations from a re-analysis of the deposited data

Results flagged for a closer look

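NOTCH3 stands out because every BRM014 library of H1299 was above every DMSO library of that line, while every BRM014 library of A549 was below every DMSO library of A549. The log2 difference of its responses, H1299 minus A549, was 1.10 (SE 0.12), and it ranged from 1.04 to 1.18 over the alternatives. JAG1 shared this pattern, and its responses differed by 0.61 on the log2 scale (SE 0.05, range 0.58 to 0.64). Its rise in H1299 was small and passed the threshold in 10 of 13 alternatives. Both differences passed the threshold in the joint edgeR fit, but they are built from the responses by which the genes were chosen, so this is a description and no p-value is given. The opposite directions themselves were not tested on measures independent of that choice. Groups of 3 libraries are too small to single out an outlying library.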

How the results depend on the processing

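The number of genes past the threshold stayed within 1.5 times its main value in all 13 alternatives for H1299, 14 for A549, 20 for the difference of responses and 13 for DMSO. When single libraries were omitted, the count ran from 2544 to 3397 in H1299 (3296 with all), 4358 to 5971 in A549 (5624), 2662 to 3718 for the difference of responses (3205) and 13879 to 14017 for DMSO (14114). Of 539 values of the 9 genes under the alternatives, 530 kept their sign, and those that turned belong to NOTCH1 in H1299, NOTCH2 in A549, NRARP in DMSO and the HEY1 difference of responses, none of which passed the threshold in the main test. Library totals moved the response of NOTCH2 in A549 to 0.05 and of JAG1 there to -0.42, and in the difference of responses the more positive share of calls to 40.7%, against 52.5% with TMM; the cause was not tested. The alternatives for the differences of single responses were chosen after seeing the data.

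Blocking on the replicate number left 3272 genes for the H1299 response and, for the DMSO comparison on DMSO libraries alone, 13722, and no call of the 9 genes changed in either. Same-numbered H1299 libraries had deviation correlations of -0.024, -0.028 and 0.0077, so no shared deviation was seen there. Such correlations cannot show whether the samples were handled together. In A549 the libraries numbered 3 correlated at 0.106, library a at 0.201 with DMSO replicate 1 and library b at -0.0205 with DMSO replicate 2, while the other numbering gave -0.069 for a and -0.0241 for b. Under neither numbering was every pair above 0.1. Both were fitted as a replicate block, an alternative chosen after seeing the data. With a as number 1, 7912 genes passed the threshold in A549 and 4566 for the difference of responses. With a as number 2, the counts were 5519 and 3056. The SE in A549 with a as number 1 was 0.05 for HES4 and 0.04 for JAG2, against 0.08 and 0.07 without the block. For HEY1 it was 0.16 in both. With a as number 2 it was 0.09 for HES4 and 0.06 for JAG2. The SEs printed for A549 thus depend on how its libraries are paired. In each of the 4 fits the same 8 of the 9 genes passed as in its counterpart without the block. The gene that did not pass was NOTCH2 in A549 and HEY1 for the difference of responses.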
